A study of Sus scrofa domesticus with 6 samples.

Results

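The S100 genes described here are 10 members of a family of small calcium-binding proteins, taken by symbol from a gene table of pig small intestine: S100A1, S100A2, S100A4, S100A6, S100A8, S100A9, S100A10, S100A11, S100A12 and S100G. The table holds 30352 named genes, 18 of them S100 genes, and 18197 genes had enough counts to be tested, all 10 members among them. The members were chosen by symbol with the measured values known, and S100A2 was selected on the height and steadiness of its level in IR against control. Their comparison of irradiated with control tissue is therefore a description: no member's p-value is given for it, counts past the threshold stand only beside the share over all genes, and no support is drawn from either.

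Bulk RNA sequencing was done on small intestine of 6 wild type Göttingen minipigs aged 6 months, with 2 animals in each of 3 groups. The control group was not irradiated. The IR group received 15 Gy of cobalt gamma rays to the abdomen. The IR_Pra group had the same exposure and was given pravastatin, a cholesterol-lowering statin, by mouth at 40 mg per day for 2 weeks. The animals were killed on day 14, and no group received pravastatin without irradiation, so the drug alone was not measured. Whole tissue was sequenced, and fewer cells of a type cannot be told apart from less RNA per cell. The design asks what irradiation did to the intestine and how the drug changed it.

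S100 proteins carry paired EF-hand loops and mostly work as dimers. Calcium binding opens a face of the dimer that grips target proteins, among them the annexins, which sit on membranes. S100A8, S100A9 and S100A12 are stored in neutrophils and other myeloid cells, and once released act on the receptors TLR4 and RAGE (the product of AGER). S100A6, S100A10 and S100A11 are made by many cell types, S100A2 mainly by stratified and other epithelia, and S100G is the vitamin D-dependent calcium carrier of the absorptive enterocyte.

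Libraries held 48600424 to 73975174 counts. The animals of a group correlated across genes with r of 0.965 for control, 0.903 for IR and 0.963 for IR_Pra, and both IR libraries stood apart in different ways. In IR 2 the 11 general epithelium markers summed to 1676 CPM (counts scaled to library size), against 7007 to 8416 in the other 5 libraries. The absorptive enterocyte markers summed to 1001 CPM there, against 17790 to 50030. The 50030 was IR 1, where APOA1, FABP1 and APOA4 had 21050, 12260 and 8929 CPM. In IR 1 ANPEP (3546 CPM) and SI (911.2) lay below both control animals (12080 and 13810, 3042 and 2793). Of 11 such markers 4 had positive log2 fold changes between IR and control (list median -1.67). In IR 1 short transcripts were high and long ones low: the median log2 ratio to control was 0.62 over the 10% of genes whose transcripts are shortest and -0.71 over the longest 10%. In IR 2 and the IR_Pra libraries the shortest 10% had medians of 0.03, -0.06 and 0.13. All 10 S100 members belong to that shortest 10%, with implied transcript lengths of 378 to 911 nucleotides against a median of 3103, so their values in IR 1 are printed beside those in IR 2 throughout. With the length trend removed from every library, the log2 fold change between IR and control was 4.66 for S100A2 and 2.21 for S100A11, and S100A12 was no longer past the threshold. The part of transcript length in the members' values was otherwise not tested.

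**Figure D1:**
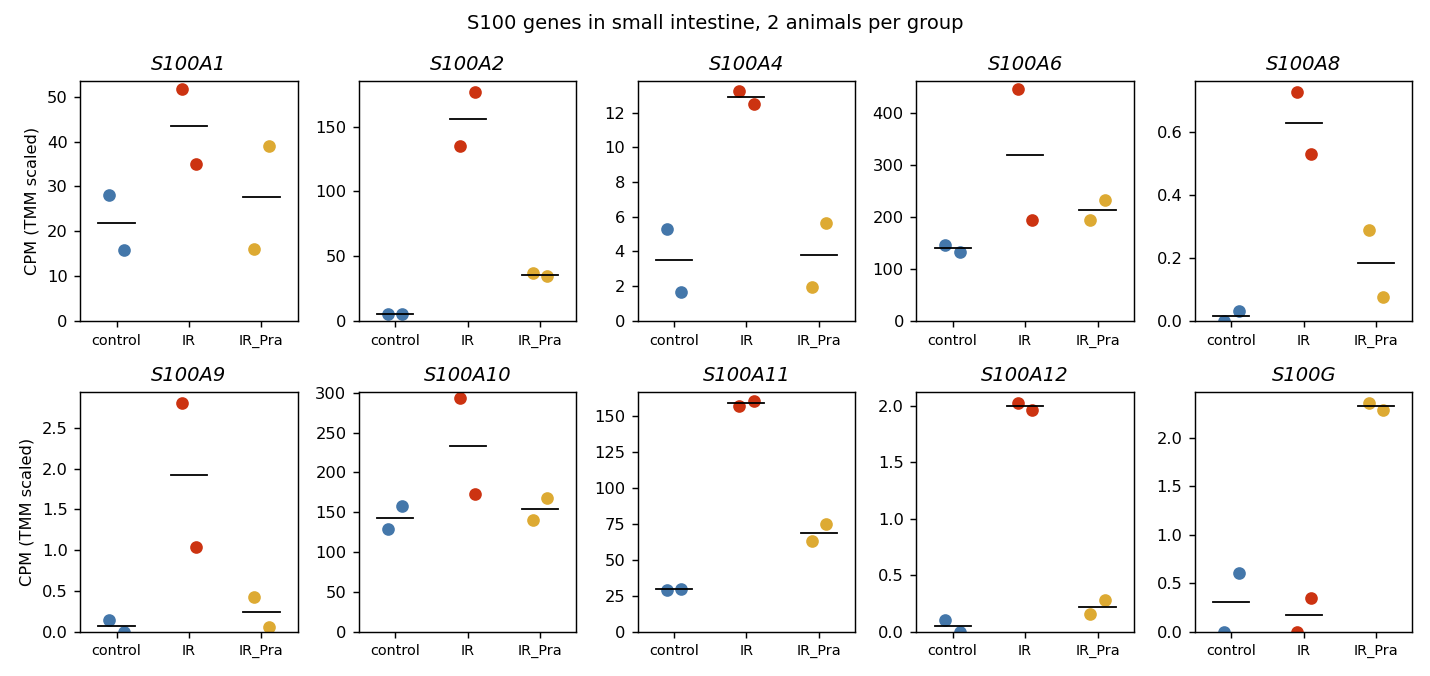
CPM (counts scaled to library size with TMM factors, linear axes from 0) of the 10 S100 genes. Each point is 1 animal and each line the mean of the 2 animals of a group. S100A2 lies at 5.18 and 5.72 in the control animals, 134.9 and 176.6 in the IR animals and 37.1 and 34.4 with pravastatin, while S100G is highest in IR_Pra.

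S100A2 (Entrez 100152729, Sscrofa11.1 chromosome 4, 96073496 to 96076825) is an S100 protein best known from keratinocytes and known to bind p53. It had 299 and 360 counts in the control animals, 7263 and 13375 in the IR animals and 1923 and 1833 with pravastatin. In CPM, which corrects for library size, these were 5.18 and 5.72, 134.9 and 176.6, and 37.1 and 34.4. The 3 groups did not overlap: IR was highest, IR_Pra lay between, and control was lowest. Group means were 5.45 ± 0.381 CPM for control, 155.8 ± 29.5 for IR and 35.8 ± 1.94 for IR_Pra (SD, n = 2 animals). The fitted log2 fold change between IR and control was 4.84 ± 0.28 (± SE). It was 5.02 without IR 1 and 4.63 without IR 2. The animals of a group differed by 0.14, 0.39 and 0.11 log2 units in control, IR and IR_Pra, where the medians over all tested genes were 0.28, 0.66 and 0.32. Height and steadiness selected this gene, so these values only describe it.

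S100A11 (Entrez 445534, chromosome 4, 97233833 to 97239081), a partner of annexin A1 found in many epithelia, had the same order of groups. It measured 29.1 and 29.8 CPM in the control animals, 157.2 and 160.4 in the IR animals and 62.9 and 75.0 with pravastatin. No group overlapped another, and the IR animals differed by 0.03 log2 units. The log2 fold change between IR and control was 2.43 ± 0.23. Across the 6 libraries its log2 CPM followed that of S100A2 more closely than any other S100 gene (Pearson r = 0.992, a description over 6 libraries that share the group differences).

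The myeloid members were rare transcripts in this tissue. S100A12 (Entrez 100301483, chromosome 4, 96225691 to 96227030) had 6 and 0 counts in the control animals, 109 and 149 in the IR animals and 8 and 15 with pravastatin, or 2.03 and 1.97 CPM in the IR animals. The IR animals agreed within 0.04 log2 units, while the control animals differed by 2.03. The summed counts, scaled to library size, gave an IR to control ratio of 40.1. This contrast chose the members, so such ratios are a description. S100A8 (Entrez 100127488, chromosome 4, 96209670 to 96210603) had 0 and 2 counts in the control animals, 39 and 40 in the IR animals and 15 and 4 with pravastatin. Its IR to control ratio of 36.8 rests on a control group with only 2 counts. S100A9 (Entrez 100127489, chromosome 4, 96236114 to 96238989), the partner of S100A8 in calprotectin, had 8 and 0, then 151 and 79, then 22 and 3 counts (in the order control, IR, IR_Pra, as in every such series of values). Its IR to control ratio was 26.8. All 3 myeloid genes were higher in both IR animals than in any control or IR_Pra animal. IR_Pra overlapped control for S100A9, whose IR_Pra 2 library (0.0563 CPM) lay below control 1 (0.139 CPM), and stood above it for S100A8 and S100A12.

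S100A6, S100A10, S100A4 and S100A1 made up a group with smaller or more scattered differences. S100A6 (Entrez 733608, chromosome 4, 96098264 to 96099686), also called calcyclin and abundant in dividing and stromal cells, measured 146.5 and 132.6 CPM in the control animals, 445.4 and 193.3 in the IR animals and 194.9 and 231.5 with pravastatin. IR 1 stood far above the rest, and IR 2 lay just under the lower IR_Pra animal. S100A10 (Entrez 100515138, chromosome 4, 97261752 to 97272517), which binds annexin A2 without needing calcium, measured 128.3 and 157.9, then 293.0 and 172.8, then 139.6 and 168.0 CPM. Again IR 1 was high, and IR 2 was only slightly above the highest of the other 4 animals. The log2 fold changes between IR and control were 1.19 ± 0.42 for S100A6 and 0.70 ± 0.33 for S100A10. Without IR 1 they were 0.47 and 0.27.

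S100A4 (Entrez 100156358, chromosome 4, 96088102 to 96091160), a marker of fibroblasts and motile cells, had 5.30 and 1.67 CPM in the control animals, 13.2 and 12.5 in the IR animals and 1.95 and 5.63 with pravastatin. The IR animals were close together and above all others, whereas control and IR_Pra animals differed by 1.65 and 1.51 log2 units and the 2 groups overlapped (log2 fold change between IR and control 1.89 ± 0.71). S100A1 (Entrez 106504218, chromosome 4, 96007026 to 96012305), a regulator of calcium cycling in muscle, had 28.0 and 15.8, then 51.7 and 35.1, then 16.1 and 39.0 CPM. Its IR_Pra animals overlapped both other groups, and the log2 fold change between IR and control was 0.99 ± 0.51. The span of S100A1 overlaps that of S100A13 by 5026 bases. Exons were not compared, and no label or header says whether strand was used in counting. How far reads of the pair were mixed is therefore not known. S100A13 itself, which takes part in the release of growth factors, had 14.0 and 13.3, then 32.3 and 24.6, then 11.6 and 18.5 CPM.

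S100G (Entrez 397265, chromosome X, 13107611 to 13114213) was the only member with its highest values in IR_Pra. It had 0 and 38 counts in the control animals, 0 and 26 in the IR animals and 122 and 122 with pravastatin, which are 2.36 and 2.29 CPM in the IR_Pra animals. Control and IR each held 1 animal without a count, which allows up to 3 counts at this depth. The summed counts, scaled to library size, gave an IR_Pra to IR ratio of 11.6 (95% counting interval 7.71 to 18.1) and an IR_Pra to control ratio of 7.38 (5.23 to 10.7). Both intervals hold counting error only, with the spread between animals left out. All of S100G lies inside the span of CTPS2, a gene of nucleotide synthesis with 1569 to 2934 counts per library. Only whole gene spans were compared, so whether exons of the pair overlap is not known. S100G had no count in control 1 and IR 1, where CTPS2 had 2302 and 2934. CTPS2 measured 39.9 and 42.3, then 54.5 and 26.3, then 31.4 and 29.4 CPM, and its part in the S100G count was not tested.

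**Figure D2:**
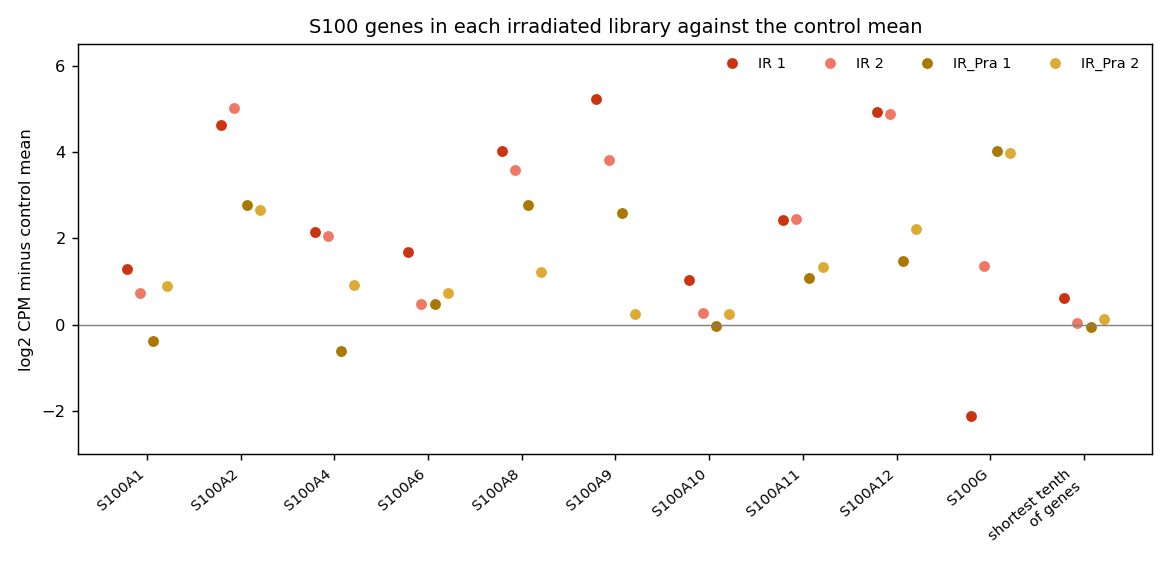
Log2 CPM (prior count 2) of each irradiated library minus the mean of the 2 control libraries, for the 10 S100 genes and, at the right, the median over the 10% of genes with the shortest transcripts. S100A2, S100A11 and S100A12 have both IR libraries close together (4.62 and 5.01 for S100A2), while S100A6 and S100A10 are high mainly in IR 1, the library in which the shortest 10% lies at 0.62.

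Levels of different genes were compared in FPKM, the authors' length-corrected values. In control, S100A10 (251.4 and 317.9 FPKM) and S100A6 (295.3 and 258.4) led and overlapped each other. S100A11 (55.8 and 58.1) and S100A1 (30.0 and 18.2) followed without overlap. S100A2 (8.73 and 9.80) and S100A4 (13.6 and 4.69) overlapped at a lower level, and S100G, S100A12, S100A9 and S100A8 had between 0 and 1.29 FPKM, each overlapping the next. In IR, S100A6 (777.6 and 423.0) and S100A10 (530.5 and 394.9) still led, and S100A2 (198.9 and 307.7) stood beside S100A11 (263.1 and 317.2), the ranges of both pairs overlapping. In IR the other members followed in the order S100A1, S100A4, S100A12, S100A9, S100A8 and S100G, with overlap only between S100A9 and S100A8. In IR_Pra the first 5 were S100A6, S100A10, S100A11, S100A2 (67.2 and 60.6) and S100A1, none overlapping the next. There S100G (5.43 and 5.13) stood below S100A1 and overlapped S100A4 (5.24 and 15.0), above the 3 myeloid genes, which overlapped one another.

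The summed FPKM of all 18 S100 genes was 800.8 and 841.0 in the control animals, 2046 and 1694 in the IR animals and 1152 and 1289 with pravastatin. S100A2 supplied 1.09% and 1.17% of that sum in the control animals, 9.72% and 18.2% in the IR animals, and 5.83% and 4.70% with pravastatin. S100A6 and S100A10 had the largest shares in each of the 6 libraries, lowest in IR 2 at 24.96% and 23.3%. S100A14, an epithelial family member outside the 10, supplied 10.03% and 12.7%, then 3.60% and 2.76%, then 11.2% and 7.84%.

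**Figure D3:**
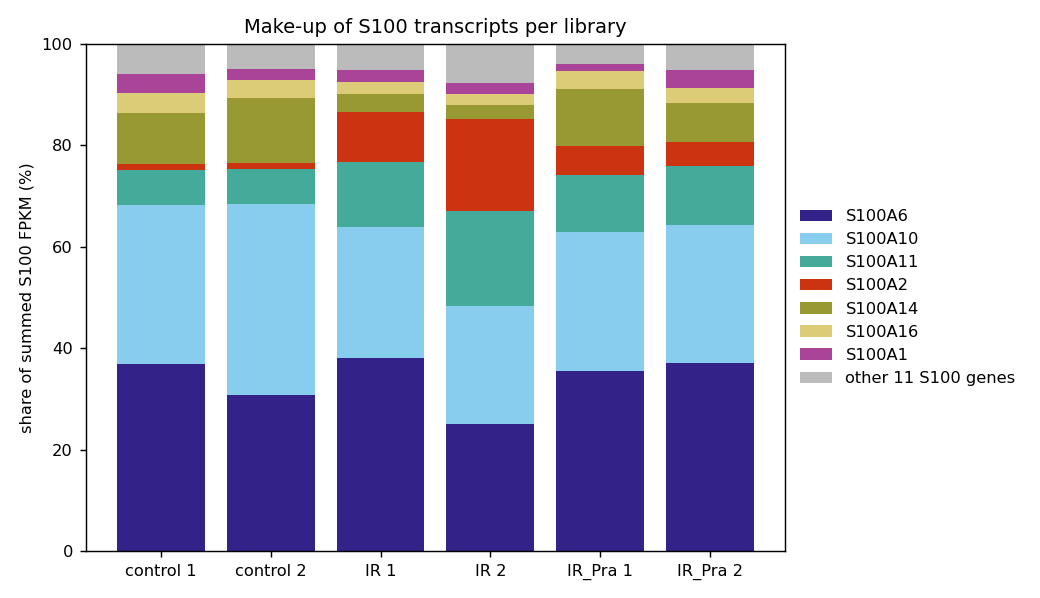
Share of each S100 gene in the summed FPKM of all 18 S100 genes, as stacked bars per library (percent, 1 bar per animal). The S100A2 segment is 1.09% and 1.17% in the control animals, 9.72% and 18.2% in the IR animals and 5.83% and 4.70% with pravastatin.

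Between IR and control, 9 of the 10 members had a positive fitted log2 fold change and S100G a negative one (-0.73 ± 1.61). S100A2, S100A11 and S100A12 stood past the threshold (edgeR's quasi-likelihood test, adjusted p under 0.05 over all genes), all higher in IR, and 6.06% of all tested genes were past it in either direction. The groups did not overlap for 9 of 10 members, against 59.8% of all genes. The median log2 fold change of the members was 2.16, and that of all tested genes 0.03. This contrast chose the members, and S100A8, S100A9 and S100A12 have most of their counts in IR, so nothing is read from these counts. The 3 calls were lost in fits without either control or either IR_Pra library and in a fit of the 4 libraries alone, in which no gene of the table was past the threshold, while 4 members and 5366 genes were past it without IR 1, and 7 members and 3311 genes without IR 2.

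Between IR_Pra and IR, the values of 9 of 10 members were lower with pravastatin and that of S100G was higher, and no member passed the test. S100A2 had a log2 difference of -2.12 ± 0.24 (edgeR, adjusted p = 0.0754) and lower values in both IR_Pra animals than in both IR animals. S100A11 had -1.20 ± 0.22 (edgeR, adjusted p = 0.0777), S100A12 -3.18 ± 0.90 (0.111), and S100G 3.65 ± 1.58 (0.225), all with groups that did not overlap. The other myeloid members had -2.99 ± 1.20 for S100A9 (edgeR, adjusted p = 0.197) and -1.77 ± 0.90 for S100A8 (0.265). The remaining 4 were S100A4 (-1.76 ± 0.70, edgeR, adjusted p = 0.198), S100A10 (-0.60 ± 0.33, 0.313), S100A6 (-0.58 ± 0.42, 0.425) and S100A1 (-0.66 ± 0.50, 0.456).

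The IR libraries that chose S100A2 are 1 side of this comparison, so it is not independent of the choice. In it 1 gene of 18197 was past the threshold (0.0055%). At an unadjusted p under 0.05 there were 5 members and 4467 genes. DESeq2 put S100A2, S100A11 and S100A12 past an adjusted p of 0.05, among 2872 genes, and limma voom and limma on log2(FPKM + 1) none. Without IR 1 the same 3 were past the threshold in edgeR, among 3795 genes, and without IR 2 these 3 and S100A6 and S100A9, among 2323 genes. Groups did not overlap for 8 of 10 members against 53.9% of genes, and the members' median log2 difference was -1.48 against -0.02. S100A6 turned to 0.14 without IR 1.

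Between IR_Pra and control all 10 members had positive log2 differences and none passed the test. S100A2 had 2.71 ± 0.25 (edgeR, adjusted p = 0.255), with both IR_Pra animals above both control animals. S100A11 had 1.23 ± 0.22, and the other 8 lay between 0.10 and 3.31, with adjusted p = 0.9998 for each of these 9 in edgeR. No gene of the table was past the threshold (0%), with 3 members and 623 genes at an unadjusted p under 0.05, and DESeq2 put S100A2 and S100A11 past it, among 72 genes. Groups did not overlap for 6 of 10 members against 40.8% of genes. The members' median was 1.51 and that of all genes 0.005, and this comparison shares its libraries with the other 2.

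Control below IR_Pra and IR_Pra below IR, with no overlap between any groups, held for 4 of 10 members: S100A2, S100A8, S100A11 and S100A12. Of all tested genes 13.1% had IR_Pra between the other groups in this way, in either direction. Since IR and control values chose the members, this count is a description.

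**Figure D4:**
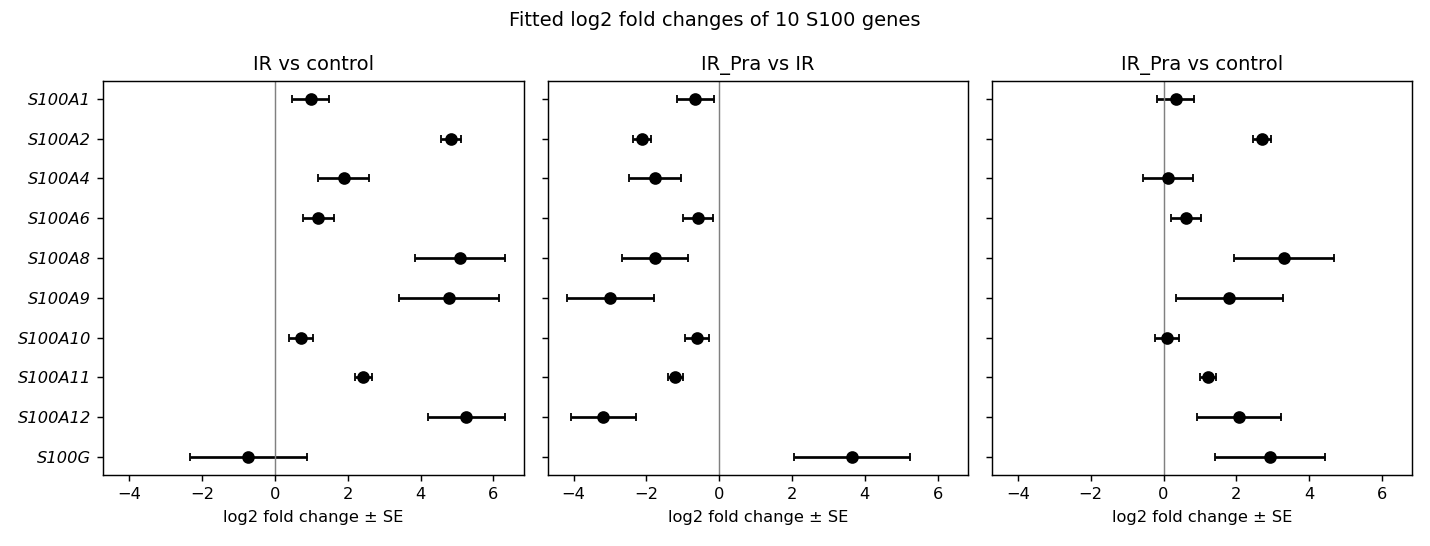
Fitted log2 fold changes (points) with their standard errors (bars) of the 10 S100 genes in the 3 comparisons, from 1 edgeR fit over the 6 libraries. S100A2 and S100A11 have the shortest bars; in IR_Pra vs IR only S100G lies right of 0.

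S100A2 lies in the S100 cluster of pig chromosome 4. The table places 15 S100 genes there, between 96007026 and 97272517, a span of 1265 kb, and 9 of the 10 members are among them. The gene next to S100A2 on one side is S100A16, 40.4 kb away from centre to centre, an epithelial S100 protein. It measured 70.3 and 64.4 CPM in the control animals, 114.0 and 81.3 in the IR animals and 82.1 and 79.6 with pravastatin, with a log2 fold change between IR and control of 0.54 ± 0.25 (edgeR, adjusted p = 0.208). The gene on the other side is S100A3, 10.3 kb away, with 5 counts in IR 1 and none elsewhere. S100A4 at 14.5 kb and S100A6 at 23.8 kb had smaller log2 fold changes than S100A2 (1.89 ± 0.71 and 1.19 ± 0.42). S100A14, 46.3 kb away on the S100A16 side, had 91.2 and 119.5 CPM in the control animals, 95.7 and 51.5 in the IR animals and 136.8 and 109.9 with pravastatin (-0.52 ± 0.36 between IR and control, adjusted p = 0.370 in edgeR). S100A13 had 1.05 ± 0.32 (edgeR, adjusted p = 0.0932). The 6 tested S100 genes nearest to S100A2 thus had log2 fold changes from -0.52 to 1.89, against 4.84 for S100A2. Within the window, values near that size were seen again at S100A8, S100A12 and S100A9, 135 to 162.4 kb away.

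Within 500 kb on either side the table has 44 genes, of which 25 were tested. Between IR and control 3 of the 25 were past the threshold, where 6.06% of all genes were, and all 3 were higher: S100A12, itself a member, RAB13, a small GTPase of tight junctions (1.18 ± 0.23, edgeR adjusted p = 0.0473), and NPR1, the receptor of atrial natriuretic peptide (1.28 ± 0.25, 0.0473). RAB13 and NPR1 were named because they passed. In this comparison 10 of the 25 had an unadjusted p under 0.05, against 5496 of all 18197 genes. In DESeq2 7 passed, against 4131. In limma voom 2 passed, against 931, and in limma on log2(FPKM + 1) 2, against 403. The median log2 fold change of the 25 neighbours was 0.54, against 0.03 over all genes, with a range from -1.56 at GATAD2B to 5.25 at S100A12. The 25 include the members S100A1, S100A4, S100A6, S100A8, S100A9 and S100A12. IR and control values chose these members, so the counts and the median are a description. Between IR_Pra and IR none of the 25 passed in edgeR (6 at an unadjusted p under 0.05, 3 in DESeq2, 0 in both limma fits) and the median was -0.28. Between IR_Pra and control none passed (2 unadjusted, 0 in the other tools) and the median was 0.12. Over all 18197 genes the unadjusted and DESeq2 counts were 4467 and 2872 between IR_Pra and IR, and 623 and 72 between IR_Pra and control.

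**Figure D5:**
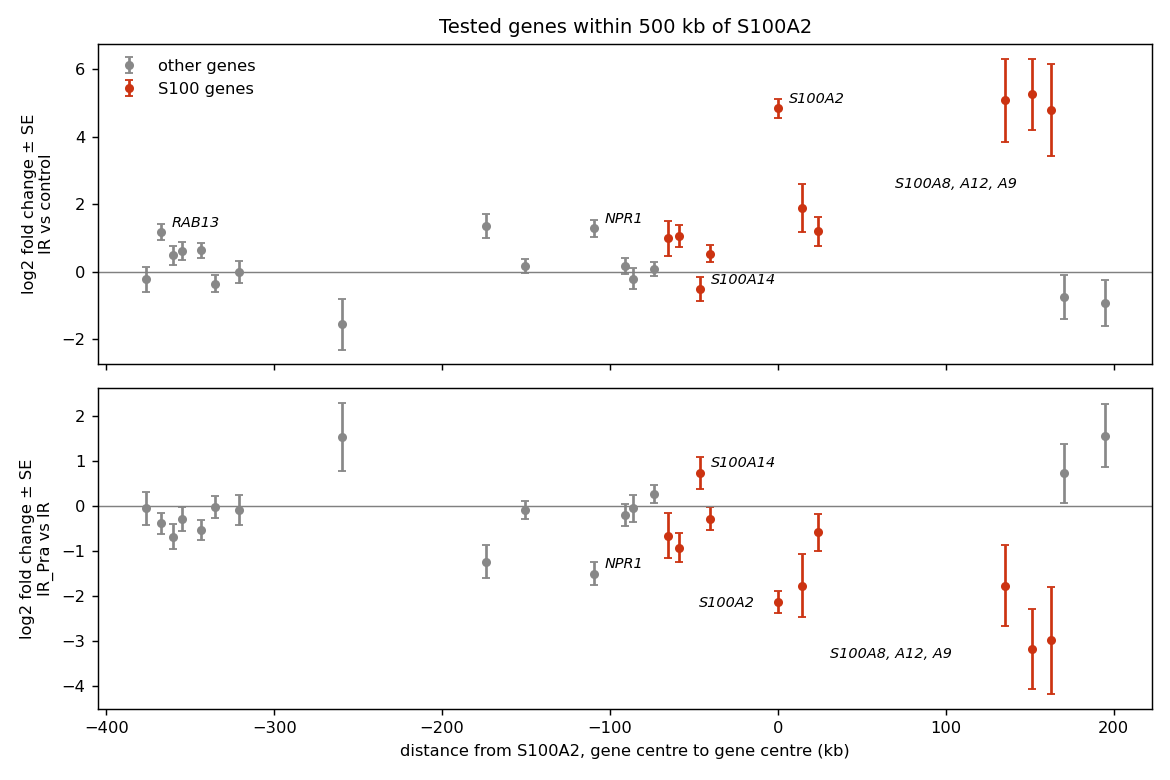
Log2 fold change ± SE of tested genes within 500 kb of S100A2, against the distance between gene centres in kb, for IR vs control (top) and IR_Pra vs IR (bottom). S100 genes are red and other genes grey. In the top panel S100A2 stands at 4.84 and S100A14, S100A16, S100A13, S100A1, S100A4 and S100A6 lie between -0.52 and 1.89, and the 3 myeloid S100 genes are 135 to 162.4 kb away.

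Of the 8 S100 genes outside the 10, 5 were tested and none passed in any comparison in edgeR. Between IR and control 2 of the 5 had an unadjusted p under 0.05 and 2 passed in DESeq2, between IR_Pra and IR these counts were 2 and 1, between IR_Pra and control 0 and 0, and both limma fits passed none. Over all 18197 genes, in the same order, the unadjusted and DESeq2 counts were 5496 and 4131, 4467 and 2872, and 623 and 72. S100A7 had no counts in any library, which allows up to 3 counts per library, and S100A5 had 32 in all. The 5 S100 fused-type genes in the table (HRNR, TCHH, TCHHL1, RPTN and CRNN), which serve cornified epithelium, had no counts, and KRT6A, a keratin of stratified and wounded epithelium, had none either.

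The genes whose log2 CPM followed S100A2 most closely over the 6 libraries, among 12253 with at least 5 CPM on average, were CD163 (r = 0.997), ALPL (0.996), PGAM1 (0.995), CDK2AP1 (0.993) and S100A11 (0.992). CD163, a scavenger receptor of macrophages, measured 10.02 and 10.2 CPM in the control animals, 134.2 and 205.9 in the IR animals and 44.1 and 42.5 with pravastatin. ALPL, the tissue-nonspecific alkaline phosphatase, measured 2.48 and 2.096, then 16.8 and 20.6, then 6.95 and 6.72 CPM. In both genes, as in S100A2, IR was highest, IR_Pra lay between, and no groups overlapped. The log2 fold changes between IR and control were 4.07 ± 0.30 for CD163 and 3.03 ± 0.30 for ALPL. PGAM1, a glycolytic enzyme, and CDK2AP1, an inhibitor of the kinase CDK2, had 0.63 ± 0.24 and 0.73 ± 0.21. These genes were picked for following S100A2, so their differences between groups are given without a test. Over the members, r with S100A2 was 0.944 for S100A8, 0.924 for S100A12, 0.827 for S100A9, 0.736 for S100A6, 0.698 for S100A4, 0.652 for S100A10, 0.605 for S100A1 and 0.028 for S100G.

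Markers of cell types that hold S100 proteins were read in the same libraries. The 12 macrophage markers summed to 737.3 and 749.8 CPM in the control animals, 3620 and 4053 in the IR animals and 1272 and 1911 with pravastatin. All 12 had positive log2 fold changes between IR and control (list median 2.80, against 0.03 over all genes). In edgeR 10 of them passed as higher, where 6.06% of all tested genes passed in either direction. C1QA, a complement subunit made by macrophages, rose by a log2 fold change of 2.60 ± 0.33 (edgeR, adjusted p = 0.0370). Of the 18 neutrophil markers 13 are in the table, with sums of 129.6 and 81.4 CPM in the control animals, 298.0 and 339.4 in the IR animals and 105.3 and 179.3 with pravastatin. FCGR3A, an Fc receptor also made by macrophages and NK cells, and LCN2, also made by epithelium, passed as higher between IR and control (2.01 ± 0.33 and 1.76 ± 0.35, edgeR adjusted p = 0.0391 and 0.0480). They were 2 of 9 tested, of which 8 had positive log2 fold changes (list median 1.76). The granule gene MMP8 had no counts, and LTF, lactoferrin, had 0.450 and 0.111 CPM in the control animals, 1.06 and 2.496 in the IR animals and 0.0386 and 0.0375 with pravastatin. The part of macrophages and neutrophils in the levels of S100A8, S100A9, S100A12 and S100A2 was not tested.

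Fibroblast markers summed to 3547 and 4598 CPM in the control animals, 10750 and 31400 in the IR animals and 9247 and 6638 with pravastatin. Between IR and control 11 of 12 had positive log2 fold changes (list median 1.59, against 0.03 over all genes). In edgeR 1 passed, FBLN1, a matrix protein (2.31 ± 0.38, edgeR adjusted p = 0.0391), where 6.06% of all tested genes passed. At an unadjusted p under 0.05 there were 11, against 5496 of all 18197 genes. DESeq2 passed 9, against 4131, and each limma fit 1. Smooth muscle markers summed to 6120 and 12460, 32440 and 69520, and 20730 and 14110 CPM. All 8 had positive log2 fold changes between IR and control (list median 2.21). ACTA2 passed in edgeR (1.54 ± 0.27, adjusted p = 0.04125), 6 had an unadjusted p under 0.05, and 7 passed in DESeq2. General epithelium markers summed to 7677 and 8416, 7656 and 1676, and 8228 and 7007 CPM, and none of 11 passed between IR and control in edgeR, at an unadjusted p under 0.05, or in DESeq2 and limma. S100A2 measured 176.6 CPM in IR 2, the library with the lowest epithelial sum, and 134.9 CPM in IR 1. The part of epithelium, fibroblasts and muscle in the members' levels was not tested. PLAUR, the urokinase receptor and a marker of injured epithelium, rose between control and IR (1.77 ± 0.28, edgeR adjusted p = 0.0373).

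Among 9 annexins and other binding partners of S100 proteins, 5 had positive log2 fold changes between IR and control. In edgeR 3 passed as higher and none as lower, where 6.06% of all tested genes passed in either direction. At an unadjusted p under 0.05 there were 4 of 9, against 5496 of all 18197 genes. DESeq2 passed 4, against 4131, limma voom 2, against 931, and limma on log2(FPKM + 1) 1, against 403. ANXA1, the partner of S100A11, measured 15.3 and 20.2 CPM in the control animals, 58.3 and 164.5 in the IR animals and 45.4 and 41.4 with pravastatin (2.65 ± 0.51, edgeR adjusted p = 0.0461). ANXA6 and ANXA5, which also bind membranes in the presence of calcium, rose by log2 fold changes of 1.78 ± 0.27 and 2.25 ± 0.35 (edgeR adjusted p = 0.0370 and 0.03705). ANXA4, another annexin, had 195.2 and 192.3, then 113.8 and 76.3, then 225.2 and 189.7 CPM, with IR below both other groups (-1.03 ± 0.28 between IR and control, edgeR adjusted p = 0.0785). ANXA2, the partner of S100A10, measured 456.1 and 505.2, then 689.9 and 493.2, then 579.6 and 586.8 CPM and did not pass (0.30, adjusted p = 0.549 in edgeR). None of the 9 passed in edgeR between IR_Pra and IR (4 at an unadjusted p under 0.05, 3 in DESeq2) or between IR_Pra and control (2 unadjusted, 0 in DESeq2), and none in the limma fits. Over all 18197 genes the unadjusted and DESeq2 counts in these 2 comparisons were 4467 and 2872, and 623 and 72. The list's median between IR and control was 0.07, against 0.03 over all genes.

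None of the 5 S100 receptors passed in any comparison in edgeR or limma. Between IR and control 2 had an unadjusted p under 0.05 and 2 passed in DESeq2, between IR_Pra and IR these counts were 1 and 1, and between IR_Pra and control 1 and 0. Over all 18197 genes, in the same order, they were 5496 and 4131, 4467 and 2872, and 623 and 72. TLR4, which S100A8 and S100A9 engage, had 6.29 and 6.14 CPM in the control animals, 13.1 and 17.4 in the IR animals and 9.81 and 15.2 with pravastatin (1.29 ± 0.33 between IR and control, edgeR adjusted p = 0.0689). AGER had a log2 fold change of -0.10 (edgeR, adjusted p = 0.902). BSG, a receptor of S100A9 also called basigin, had 0.88 ± 0.24 (edgeR, adjusted p = 0.0794).

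S100G was read beside the other genes of intestinal calcium uptake. None of 12 tested passed in any comparison in edgeR or limma, and the vitamin D-degrading enzyme CYP24A1 had no counts. Between IR and control 2 of the 12 had an unadjusted p under 0.05 and 1 passed in DESeq2, between IR_Pra and IR 1 and 1, and between IR_Pra and control 0 and 0. Over all 18197 genes, in the same order, these counts were 5496 and 4131, 4467 and 2872, and 623 and 72. The entry channel TRPV6 had 0.156 and 3.43 CPM in the control animals, 1.08 and 0.185 in the IR animals and 0.251 and 0.694 with pravastatin. TRPV6 was thus not highest in IR_Pra as S100G was. CALB1, of the same list, had 0.866 and 1.365, then 1.52 and 0.819, then 2.085 and 1.97 CPM, highest in both IR_Pra animals. Its log2 difference between IR_Pra and IR was 0.80 ± 0.50 (edgeR, adjusted p = 0.372). In that comparison 7 of the 12 were positive (list median 0.098, against -0.02 over all genes). The vitamin D receptor VDR had 100.5 and 172.2, then 191.9 and 34.9, then 137.8 and 100.4 CPM. Markers of the proximal small bowel, where calcium uptake is most active, summed to 118.6 and 157.8 CPM in the control animals, 121.3 and 104.4 in the IR animals and 152.5 and 214.0 with pravastatin. Most of each sum was CYBRD1, with 84.7 and 122.2, then 70.4 and 64.9, then 105.2 and 173.8 CPM. Of this list, the duodenal factor PDX1 had 0.623 and 0.397, then 2.19 and 0.172, then 0.0386 and 0.338 CPM, and GATA4 2.22 and 1.095, then 0.409 and 1.64, then 0.657 and 1.20 CPM. Between IR_Pra and IR 3 of the 6 had positive log2 differences. SLC46A1 was the 1 of 6 that passed between IR and control (1.39 ± 0.28, edgeR adjusted p = 0.0487), where 6.06% of all tested genes passed. It had 5.51 and 6.94, then 17.3 and 15.2, then 7.05 and 6.45 CPM. Markers of the distal small bowel summed to 13710 and 7745, then 23730 and 767.8, then 18910 and 10890 CPM. The site along the bowel from which each sample was taken is not stated in the labels, and its part in the S100G level was not tested.

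Among 13 tested p53 targets, 8 had positive log2 fold changes between IR and control, with a list median of 0.32 against 0.03 over all genes. PHLDA3, AEN and CDKN1A passed as higher in edgeR, where 6.06% of all tested genes passed in either direction. DESeq2 passed 5 of the 13, against 4131 of all 18197 genes. In limma voom 2 passed, against 931, and in limma on log2(FPKM + 1) 1, against 403. PHLDA3, an inhibitor of AKT signalling, measured 10.4 and 7.97 CPM in the control animals, 158.6 and 251.0 in the IR animals and 43.95 and 36.5 with pravastatin (4.48 ± 0.36, edgeR adjusted p = 0.0331). Its 3 groups did not overlap. CDKN1A, the cell cycle inhibitor p21, measured 70.4 and 78.9, then 209.1 and 154.9, then 96.8 and 116.3 CPM (1.29 ± 0.26, edgeR adjusted p = 0.0489). The other 10 did not pass, and they went in both directions. Among them GDF15 had 1.16 and 0.572, then 11.8 and 4.04, then 3.05 and 3.30 CPM (3.19 ± 0.66, edgeR adjusted p = 0.0502). BAX and ZMAT3 also had higher values in both IR animals than in both control animals. TP53INP1, an autophagy and stress protein, had 77.5 and 72.2, then 36.1 and 43.6, then 74.8 and 74.1 CPM (-0.91 ± 0.22, edgeR adjusted p = 0.0622). FAS, a death receptor, and SESN1, a stress-induced regulator of growth, also had lower values in both IR animals than in both control animals (-1.04 ± 0.41 and -0.60 ± 0.27, edgeR adjusted p = 0.160 and 0.202). None of the 13 passed between IR_Pra and IR in edgeR or limma (4 at an unadjusted p under 0.05, 2 in DESeq2). Over all 18197 genes the unadjusted and DESeq2 counts there were 4467 and 2872.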

How the data were processed

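Per the file headers, the authors deposited a read count and an FPKM value for each gene and library. Per the submitters' processing notes they used bcl2fastq 2.20.0, Trimmomatic, HISAT2 2.1.0 and StringTie 2.1.3b. Neither labels nor headers say how whole counts were made or whether strand was used. The 24 rows without a name (0.00906% to 0.0385% of counts) were left out. All named rows matched RefSeq genes of Sscrofa11.1 by Entrez ID.

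Counts were fitted in R 4.3.3 with edgeR 4.0.16: TMM scaling, filterByExpr, 1 term per group over 6 libraries (3 residual degrees of freedom), two-sided quasi-likelihood F tests, and Benjamini-Hochberg adjustment over 18197 genes. The threshold was an adjusted p under 0.05. CPM are TMM scaled. With 2 animals a group, p-values rest on a spread shared over genes, and the labels number separate animals. The code was tested on simulated data. Alternatives used DESeq2 1.42.0 and limma 3.58.1, other scalings and filters, a block, and each library left out.

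The members and all gene lists were chosen with earlier results of these data known. The text names all members, the other S100 genes and at most 4 genes of each further list with the smallest p. It also names the 5 genes most like S100A2 and its nearest neighbours. Further genes, named for their role, for their values or because they passed, were chosen after their values were seen.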

Additional observations from a re-analysis of the deposited data

How the results depend on the processing

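Between IR and control, 3 members were past the threshold, 5 with DESeq2, 0 with a replicate block and 0 with only the 4 libraries of the comparison. Leaving out 1 library gave 0 to 7. Between IR_Pra and IR the count was 0, 3 with DESeq2 and 0 to 5 with 1 library left out. Between IR_Pra and control it was 0 and 2 with DESeq2. The replicate numbers name separate animals, and the labels do not say whether same-numbered animals were handled together. Deviations of same-numbered animals correlated at 0.081, -0.110 and -0.091 between pairs of groups. These values cannot show whether a batch was shared. The block left fewer residual degrees of freedom and no gene past the threshold. The count of all genes past it between IR and control was 1103, 475 with library size alone, 4131 with DESeq2, 5366 without IR 1, 3311 without IR 2, and 0 without a control or IR_Pra library. Between IR_Pra and IR it was 1, 2872 with DESeq2, 3795 without IR 1 and 2323 without IR 2. The lone library of a group was assumed to vary like the other groups. Library size alone moved the median of all genes between IR_Pra and IR from -0.02 to 0.14.

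The log2 difference of S100A2 stayed between 4.599 and 5.02 for IR vs control, -2.30 and -1.92 for IR_Pra vs IR, and 2.59 and 2.80 for IR_Pra vs control over all alternatives. Signs turned for 12 of 495 values of single members. With the length trend removed, an alternative chosen after seeing the data, S100A4 and S100A10 turned to -0.10 and -0.048 in IR_Pra vs control. The other 10 came from leaving out 1 library. In IR_Pra vs control the ranges were -0.062 to 0.27 for S100A10, -0.44 to 0.82 for S100A1, -0.83 to 1.16 for S100A4 and -0.26 to 6.83 for S100A9. S100G ranged from -7.14 to 6.39 in IR vs control, and S100A6 from -1.06 to 0.14 in IR_Pra vs IR. Low counts limit S100A8, S100A9, S100A12 and S100G, whose fitted folds depend on the prior count.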

Other observations

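S100B, an S100 gene outside the 10 and a marker of enteric glia, measured 18.2 and 23.0 CPM in the control animals, 37.2 and 76.0 in the IR animals and 18.7 and 26.9 with pravastatin. Its log2 difference was 1.46 ± 0.41 between IR and control (edgeR, adjusted p = 0.0806) and -1.31 ± 0.41 between IR_Pra and IR (edgeR, adjusted p = 0.131), with IR above both other groups in every animal. GFAP, an intermediate filament of glia, measured 2.49 and 2.14 CPM in the control animals, 29.7 and 42.8 in the IR animals and 5.48 and 4.52 with pravastatin, and rose between control and IR (3.97 ± 0.33, edgeR adjusted p = 0.0331). SOX10, a glial transcription factor, had 2.42 and 4.46, then 10.1 and 34.2, then 4.595 and 3.41 CPM (2.68 ± 0.66, edgeR adjusted p = 0.0647). ERBB3, a neuregulin receptor of glia that epithelium also makes, had 789.7 and 907.6, then 175.1 and 65.6, then 494.4 and 559.6 CPM and fell between control and IR (-2.82 ± 0.52, edgeR adjusted p = 0.0439). Of the 7 enteric glia markers 6 had positive log2 fold changes between IR and control. In edgeR 1 passed as higher and 1 as lower, where 6.06% of all tested genes passed in either direction.

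S100Z was the S100 gene with the lowest tested log2 difference between IR and control outside the 10, at -1.44 ± 0.65 (edgeR, adjusted p = 0.199). It had 2.51 and 2.33 CPM in the control animals, 1.39 and 0.409 in the IR animals and 0.927 and 1.39 with pravastatin, so both irradiated groups lay below control in every animal.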
